A study of Mus musculus with 9 samples.

Results

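The kidneys of 3 mice lacking both Pkd2 and the cilia gene Ift88 were compared with the kidneys of 3 mice lacking Pkd2 alone, to see which transcripts differ when the cilia gene is removed in addition to the polycystin. The compared set was the 6 libraries of these genotypes out of 9 in the series, and the 15740 of 22161 gene rows whose mean normalized count over the 9 libraries was at least 10. The Pkd2 knockout carried Pkd2fl/fl with Pax8rtTA and TetO-cre, and the double knockout carried Ift88fl/fl in addition. A wild type group of 3 mice served as the common reference. All mice, including the wild type, were C57BL/6, and all were given doxycycline by mouth (2 mg/ml, a course of 2 weeks that began at postnatal day 28). Whole kidneys were collected at postnatal day 70, when the mice were 10 weeks old. The Pax8 promoter drives the doxycycline-dependent activator in renal tubule cells, so vessels, interstitium and immune cells of the same kidney keep their floxed alleles. The replicates are biological, per the series design. The mouse names carry a prefix of their own in the double knockout, another in Pkd2 knockout mice 1 and 2 and yet another in Pkd2 knockout mouse 3, and wild type mice 1 and 2 likewise share a prefix that wild type mouse 3 does not have; what a prefix stands for is not given in the sources used here, and prefix and genotype cannot be told apart.

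Polycystin-2, the product of Pkd2, is a cation channel that sits with polycystin-1 in the membrane of the primary cilium, and its loss from tubule cells causes cystic kidneys. IFT88 is a subunit of the intraflagellar transport B complex, which carries cargo along the axoneme, and without it tubule cells build no normal cilium. In mice, loss of cilia together with a polycystin is known to give milder cystic disease than loss of the polycystin alone.

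Normalized library totals were alike and 1 library stood apart in composition. Normalized totals ran from 40454151 to 42874467 per library. Because the counts were already scaled between libraries, this closeness says little about sequencing depth. In the 7 libraries used for count tests, 37056843 to 47314829 reads were recovered. The kidney label matched the markers: the proximal tubule phosphate transporter Slc34a1 read 218360 to 260666 and uromodulin (Umod) 69605 to 173515 normalized counts across the 9 libraries. Pkd2 knockout mouse 3 had the highest red cell signal, with 3506 normalized counts of the beta-globin gene Hbb-bs against 42.2 to 607 in the other libraries, and the highest levels of the fat cell genes Adipoq (460 against 50.1 to 250) and Plin1 (484 against 45.7 to 222). The 8 tested genes of the erythroid list summed to 9224 normalized counts there and to 2985 to 4571 elsewhere. The part of this library in the comparisons is given below by values without it.

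Of the 15740 genes tested, 62 (0.394%) differed between the double and the Pkd2 knockout at a limma adjusted p below 0.05, the threshold used throughout. Of these, 20 (0.127%) were higher and 42 (0.267%) lower in the double knockout, and the median log2 fold change of all tested genes was 0.005. After quantile normalization the split was 15 higher and 16 lower. Of the 42 lower genes, 13 were on the lists of mitosis and S phase genes described below, and single ones were on the lists of matrix, protease, chemokine and ciliary genes. None of the 20 higher genes was on any list. All 62 had double knockout values that did not overlap the Pkd2 knockout values, as did 15.2% of all tested genes. Only 8 of the 62 were called with every library left out in turn: Spink6, Gtf2h2, Ppp1r1b, Ogdhl, Ppp1r3e, Pdlim2, 4930564B18Rik and Gm15217. Without Pkd2 knockout mouse 1 or without mouse 2, 54 of the 62 lost their call, and without mouse 3, 17 did. The fit without Pkd2 knockout mouse 3 called 54 of all 15740 tested genes higher and 100 lower, more than with all 9 libraries. Without wild type and Pkd2 knockout mouse 3 together, the mice whose prefix differs within their group, 106 genes were called higher and 202 lower. On the recovered reads of 7 libraries, which leave out wild type mouse 1 and Pkd2 knockout mouse 1, edgeR called 9 and DESeq2 55 of the 62. Over all 15740 tested genes edgeR called 6 higher and 4 lower, and DESeq2 41 higher and 111 lower. The edgeR and DESeq2 counts of each list below stand beside these totals.

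**Figure D1:**
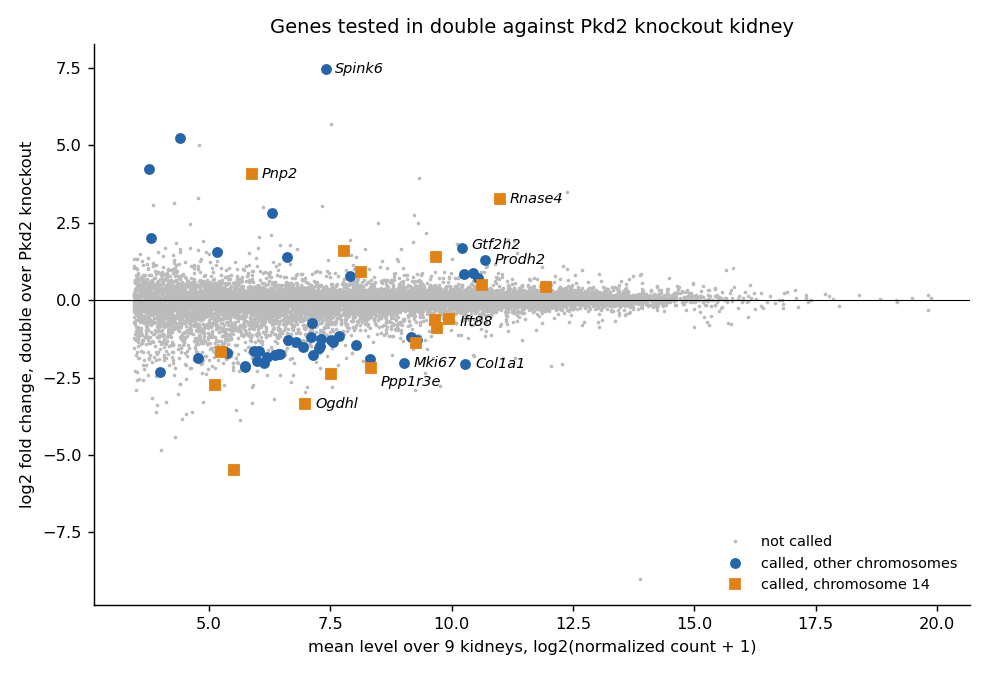
Log2 fold change of the double over the Pkd2 knockout (y axis) against the mean level over 9 kidneys on the log2(normalized count + 1) scale (x axis) for the 15740 tested genes. The 62 called genes are drawn large, with the 17 on chromosome 14 as squares; 42 lie below 0 and 20 above.

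Ift88 was lower in the double knockout and Pkd2 was low in both mutants. Ift88 read 1121, 1086 and 1214 normalized counts in the Pkd2 knockout mice and 735, 691 and 831 in the double knockout mice, beside 1132, 1067 and 1056 in the wild type mice. Every double knockout value lay below every value of the other groups. The log2 fold change against the Pkd2 knockout was -0.60 ± 0.09 (SE), leaving 66.0% of the Pkd2 knockout mean (limma adjusted p = 0.0358). The call was lost without wild type mouse 1 or 2, Pkd2 knockout mouse 1 or 2 or double knockout mouse 1 or 2, with a highest limma adjusted p of 0.126. Counts are over the whole gene, and cells that do not express the recombinase contribute to them, so this value does not measure the deleted exons. Pkd2 read 4723, 5083 and 5549 in the Pkd2 knockout, 5181, 3777 and 5102 in the double knockout and 13768 to 14505 in wild type kidneys. The mutant groups overlapped, with a log2 fold change between them of -0.14 ± 0.12 (limma adjusted p = 0.784). Pkd1, the gene of polycystin-1, read 2275 to 2738 in the Pkd2 knockout and 2292 to 2687 in the double knockout (log2 fold change -0.01 ± 0.11, limma adjusted p = 0.989). None of the 12 tested genes of the list of polycystins and their maturation was called by limma, edgeR or DESeq2, and none had an unadjusted limma p below 0.05; Pkhd1, the fibrocystin gene, had the highest mean count among them at 11660 ± 1634 (SD, n = 3) against 10546 ± 759 (SD, n = 3).

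**Figure D2:**
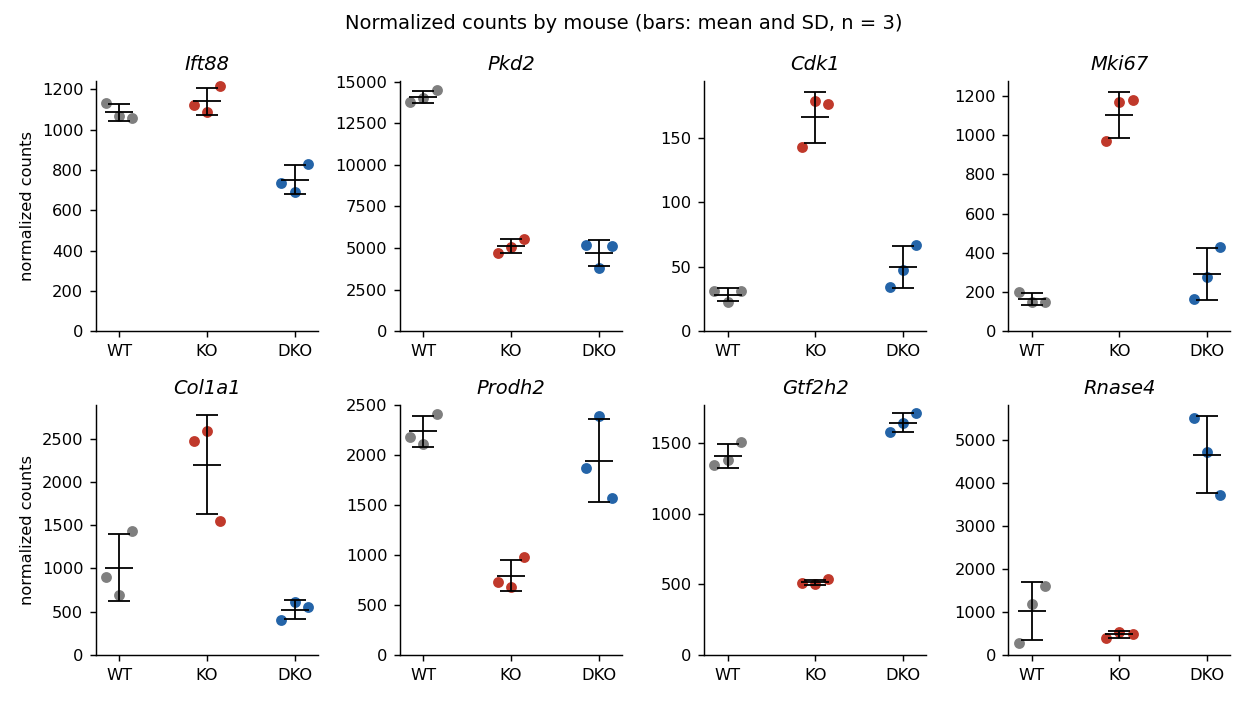
Normalized counts of 8 genes in each of the 9 mice, by group (WT wild type, KO Pkd2 knockout, DKO double knockout), with the mean and SD of 3 mice. Pkd2 is near 5000 in both mutants, Ift88 is lowest in the double knockout, and Cdk1, Mki67 and Col1a1 are highest in the Pkd2 knockout.

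Transcripts of dividing cells were the largest group among the falls. Of 44 genes of the mitosis list, which covers cyclins, mitotic kinases, kinesins and kinetochore proteins transcribed late in the cell cycle, 43 were tested; Cdc25c was too low. Of the 43, 10 were called lower in the double knockout (against a background of 0.267%), none was called higher, and 33 did not pass. The median log2 fold change of the 43 was -1.62 against 0.005 for all tested genes. All 43 had log2 fold changes below 0, as did 48.5% of all tested genes; 39 had an unadjusted limma p below 0.05, against 6.49% of all genes in that direction, and 38 had non-overlapping groups, against 7.78%. DESeq2 called 23 of the 43 lower, beside 111 of all 15740 tested genes, and edgeR called none. Only 4 of all tested genes were called lower by edgeR. An absence of edgeR calls therefore says little about this list or those below.

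Cdk1, the cyclin-dependent kinase of mitotic entry, read 143, 178 and 176 normalized counts in the Pkd2 knockout mice, 34.6, 47.1 and 67.1 in the double knockout mice and 31.1, 22.5 and 31.6 in the wild type mice. Its log2 fold change was -1.77 ± 0.26 (limma adjusted p = 0.0361). The double knockout values lay between the other groups; they differed from wild type by 0.75 ± 0.26 on the log2 scale (limma adjusted p = 0.317), while the Pkd2 knockout differed from wild type by 2.51 ± 0.26 (limma adjusted p = 0.00346). Mki67, the proliferation antigen Ki-67, read 969, 1166 and 1177 in the Pkd2 knockout and 165, 277 and 431 in the double knockout, beside 146 to 202 in wild type. The log2 fold change of Mki67 was -2.02 ± 0.30 (limma adjusted p = 0.0358), and the 3 double knockout mice spread widely, with mouse 1 inside the wild type range and mouse 3 highest. Top2a, the topoisomerase that untangles sister chromatids, read 650 ± 95.2 in the Pkd2 knockout and 181 ± 67.2 in the double knockout (SD, n = 3 each; log2 fold change -1.90 ± 0.25, limma adjusted p = 0.0279). In each of these 3 genes double knockout mouse 1 was the lowest of its group and mouse 3 the highest.

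The other called members covered separate steps of division. The mitotic cyclins Ccna2 and Ccnb2 had log2 fold changes of -1.54 ± 0.20 (limma adjusted p = 0.0272) and -1.73 ± 0.26 (limma adjusted p = 0.0362). Ccna2 read 290 ± 9.99 in the Pkd2 knockout and 99.9 ± 18.0 in the double knockout (SD, n = 3 each), with 57.2 to 88.2 in the wild type mice. Among the spindle motors and microtubule proteins, the kinesins Kif4 and Kif11, the midzone bundler Prc1 and the spindle protein Ckap2l had log2 fold changes of -1.64, -1.52, -1.49 and -1.96. Nuf2, part of the kinetochore complex that grips microtubules, read 71.0 to 76.0 in the Pkd2 knockout and 17.3 to 29.0 in the double knockout (log2 fold change -1.63 ± 0.25, limma adjusted p = 0.0404). Ect2, the guanine exchange factor of the cleavage furrow and the uncalled member with the highest mean count, read 646, 758 and 499 in the Pkd2 knockout and 204, 386 and 643 in the double knockout, and the groups overlapped (log2 fold change -0.76 ± 0.41, limma adjusted p = 0.596). Across the list the mean log2 difference from wild type was 1.61, 1.90 and 1.95 in the Pkd2 knockout mice and -0.07, 0.40 and 0.83 in the double knockout mice.

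The number of called mitosis genes depended on single libraries. It was 10 with all 9, 11 without wild type mouse 3 or double knockout mouse 3, 6 without Pkd2 knockout mouse 3, 4 without wild type mouse 1, 5 without wild type mouse 2, 1 without double knockout mouse 1 and 0 without Pkd2 knockout mouse 1, Pkd2 knockout mouse 2 or double knockout mouse 2. The median log2 fold change of the list was -1.54 without Pkd2 knockout mouse 3, a fit that called 100 of all 15740 tested genes lower. In bulk kidney, fewer cells of a type and less RNA per cell cannot be told apart, here and in each list below.

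**Figure D3:**
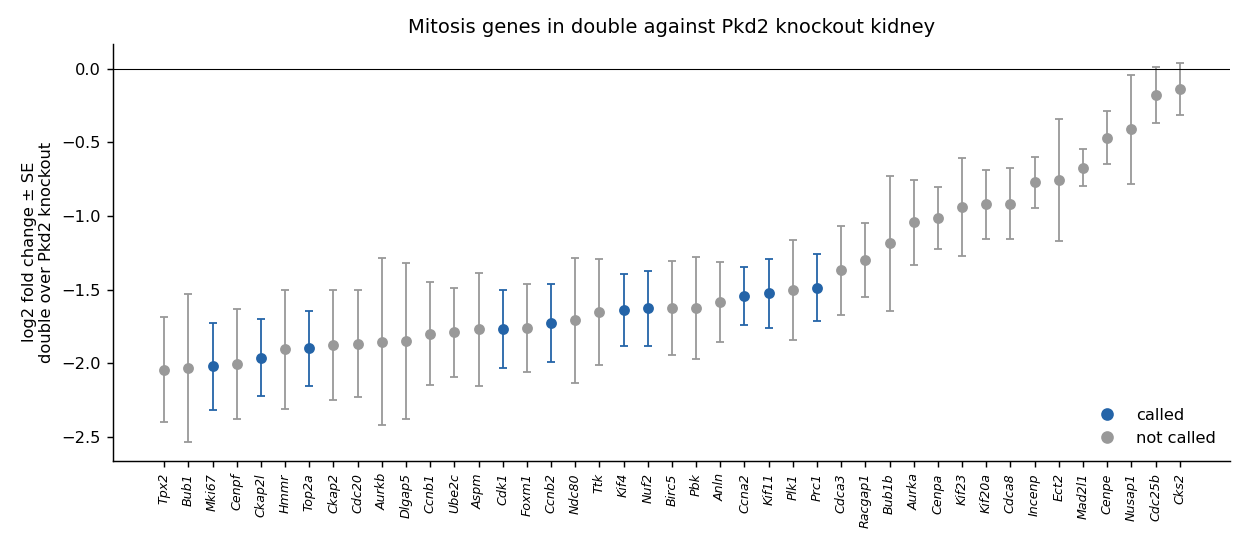
Log2 fold change ± SE of the double over the Pkd2 knockout (y axis) for the 43 tested genes of the mitosis list, ordered by value (x axis). All points lie below 0, and the 10 called genes run from -2.02 (Mki67) to -1.49 (Prc1).

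Late cell cycle genes are known for promoters that hold a CCAAT box and the cell cycle homology element. These are the 120 bases before the start site of 4 called genes whose windows hold both elements, and of Nuf2, called with neither element within the 250 bases searched, for contrast (RefSeq, GRCm38.p6, given 5′ to 3′ on the gene's strand; capitals mark TTTGAA or its reverse complement TTCAAA, and CCAAT or its reverse complement ATTGG):
Cdk1, chr10:69352913-69353032, minus strand: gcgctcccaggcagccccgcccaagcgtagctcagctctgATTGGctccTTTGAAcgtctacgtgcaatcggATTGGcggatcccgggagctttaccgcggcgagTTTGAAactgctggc
Kif11, chr19:37376262-37376381, plus strand: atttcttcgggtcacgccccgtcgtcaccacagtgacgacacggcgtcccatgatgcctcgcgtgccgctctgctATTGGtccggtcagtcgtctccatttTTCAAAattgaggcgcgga
Prc1, chr7:80294356-80294475, plus strand: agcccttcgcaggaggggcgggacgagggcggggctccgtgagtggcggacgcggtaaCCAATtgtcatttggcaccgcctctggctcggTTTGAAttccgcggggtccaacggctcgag
Top2a, chr11:99024190-99024309, minus strand: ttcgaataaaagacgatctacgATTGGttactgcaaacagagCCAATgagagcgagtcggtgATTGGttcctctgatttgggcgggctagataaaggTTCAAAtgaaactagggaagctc
Nuf2, chr1:169531465-169531584, minus strand: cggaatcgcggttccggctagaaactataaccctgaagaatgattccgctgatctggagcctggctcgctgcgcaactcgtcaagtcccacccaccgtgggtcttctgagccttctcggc
In the 250 bases before the start, TTTGAA on either strand occurred in 7 of the 10 promoters of 9 called mitosis genes, in 12 of the 37 promoters (32.4%) of all tested members, in 10.9% of the 14358 promoters of tested genes and in 16% of all 32851 promoters. CCAAT on either strand occurred in 9 of 10, in 31 of 37 (83.8%), in 34.5% and in 33.8%. Both together occurred in 32.4% of the tested members' promoters and 4.05% of those of tested genes. Ccna2 had no promoter entry. Prc1 had a further entry with another start site (chr7:80294331-80294450), which held CCAAT but no TTTGAA in the 250 bases searched. These are matches of letters and show nothing about binding.

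The list of DNA replication and S phase genes gave 3 calls. Of 33 tested, 3 were called lower and none higher: Rrm2, the ribonucleotide reductase subunit made in S phase (log2 fold change -1.44 ± 0.17, limma adjusted p = 0.0168), Uhrf1, which carries DNA methylation through replication (-1.78 ± 0.24, limma adjusted p = 0.0306), and Dtl, the substrate receptor for licensing factor Cdt1 (-2.13 ± 0.33, limma adjusted p = 0.0362). Rrm2 read 410, 462 and 477 in the Pkd2 knockout, 127, 193 and 182 in the double knockout and 150 to 179 in wild type, so the double knockout covered the wild type range. The list's median log2 fold change was -0.67, and 23 of 33 members were lower at an unadjusted limma p below 0.05. Over all tested genes 6.49% were lower at that threshold and 0.267% were called lower. In edgeR no member was called and in DESeq2 8. Without Pkd2 knockout mouse 3 the list's median was -0.64 and 5 members were called lower, beside 100 of all 15740 tested genes. The 3 calls were lost without Pkd2 knockout mouse 1 or 2, that of Uhrf1 also without any double knockout mouse and that of Dtl also without wild type mouse 1 or 2 or double knockout mouse 1 or 2, with a highest limma adjusted p of 0.0946 for Rrm2, 0.126 for Uhrf1 and 0.151 for Dtl.

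Outside the lists, Iqgap3, a scaffold of the actin cortex, and Casc5, the kinetochore protein also known as Knl1, were among the 12 largest falls, with log2 fold changes of -2.02 ± 0.27 and -1.82 ± 0.24 (limma adjusted p = 0.0298 and 0.0279). Other called genes of division, named here after their values were seen, were the condensin subunits Ncaph (-1.65) and Ncapg2 (-1.29), the leading strand polymerase Pole (-1.30), Troap (-2.31), Cep55 (-1.87), Knstrn (-1.75), Tcf19 (-1.18), Arhgap11a (-1.15) and Tacc3 (-0.74). Cell cycle genes that are not restricted to S phase or mitosis did not pass. Over all tested genes 6.49% were lower at an unadjusted limma p below 0.05. None of 16 G1 cyclins, partner kinases, inhibitors and Myc was called by limma, edgeR or DESeq2, with 3 lower at an unadjusted limma p below 0.05. Cyclin D1 (Ccnd1) read 14795, 14921 and 15683 in the Pkd2 knockout and 10118, 13570 and 9274 in the double knockout, without overlap (log2 fold change -0.48 ± 0.13, limma adjusted p = 0.196). Of 20 p53 targets none was called by limma, edgeR or DESeq2, with 6 lower at an unadjusted limma p below 0.05 and a median of -0.26; Ccng1 read 10541 to 14748 against 7962 to 9773 (limma adjusted p = 0.241).

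Matrix genes gave 2 calls. Col1a1, a chain of fibrillar type I collagen, read 2470, 2589 and 1543 normalized counts in the Pkd2 knockout, 404, 608 and 557 in the double knockout and 900, 693 and 1438 in wild type. Its log2 fold change was -2.06 ± 0.29 (limma adjusted p = 0.0335). The double knockout values lay below all wild type values, but that difference did not pass (-0.90 ± 0.29, limma adjusted p = 0.284). Col1a1 was the only 1 of 31 collagen and matrix genes called with all 9 libraries (median -0.38, edgeR 0 and DESeq2 2 called). At an unadjusted limma p below 0.05, 12 of the 31 were lower, against 6.49% of all tested genes. Without Pkd2 knockout mouse 3, 8 of the 31 were called lower, beside 100 of all 15740 tested genes, and the median was -0.53. The call of Col1a1 was lost without wild type mouse 1, Pkd2 knockout mouse 1 or 2, or any double knockout mouse. Its highest limma adjusted p in these fits was 0.140. Col4a3, a basement membrane chain, read 19894 to 24292 against 14659 to 23272 (log2 fold change -0.17 ± 0.19, limma adjusted p = 0.854). Of 23 matrix proteases, inhibitors and lysyl oxidases, Adamts2, which trims the amino-terminal propeptide of fibrillar procollagens, was called, reading 328, 264 and 214 in the Pkd2 knockout and 85.5, 104 and 124 in the double knockout (log2 fold change -1.35 ± 0.19, limma adjusted p = 0.0358). The median of that list was -0.71, with 15 lower at an unadjusted limma p below 0.05, edgeR 0 and DESeq2 3 called. Without Pkd2 knockout mouse 3 the median of the list was -0.96 and 3 were called lower, beside the same 100 of all tested genes. The call of Adamts2 was lost without wild type mouse 1 or 2, Pkd2 knockout mouse 1 or 2 or double knockout mouse 1 or 2, with a highest limma adjusted p of 0.147. Timp3, a metalloprotease inhibitor, read 83678 to 89238 against 63651 to 80864 (limma adjusted p = 0.346).

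With all 9 libraries, no fibroblast or tubular injury gene was called by limma. Of 21 fibroblast and myofibroblast genes, limma, edgeR and DESeq2 called none, and the median was -0.41. At an unadjusted limma p below 0.05, 10 of the 21 were lower, against 6.49% of all tested genes. Without Pkd2 knockout mouse 3 the median was -0.73 and 1 was called lower, beside 100 of all 15740 tested genes. Vim, the intermediate filament vimentin, read 3704, 1537 and 1299 against 1059, 1025 and 987 (limma adjusted p = 0.392); Pkd2 knockout mouse 1 was far above the others. Of 23 genes of tubular injury and simple keratins, limma and edgeR called none and DESeq2 1 lower, while 10 were lower and 1 higher at an unadjusted limma p below 0.05 (median -0.48). Without Pkd2 knockout mouse 3, 6 injury genes were called lower, beside the same 100 of all tested genes, and the median was -0.75. The hyaluronan receptor Cd44, named after its values were seen, read 485, 352 and 158 in the Pkd2 knockout and 80.4, 71.6 and 111 in the double knockout (limma adjusted p = 0.0999). Spp1, osteopontin, overlapped, at 15857 to 35080 against 14789 to 24051 (log2 fold change -0.36 ± 0.27, limma adjusted p = 0.739).

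All 23 tested macrophage and myeloid genes had log2 fold changes below 0, and none of them was called. The median log2 fold change was -1.0, edgeR called none and DESeq2 1. At an unadjusted limma p below 0.05, 17 of 23 were lower. Over all tested genes 6.49% were lower at that threshold and 48.5% had log2 fold changes below 0. The list's summed normalized counts were 13868, 14096 and 9151 in the Pkd2 knockout mice, 7462, 6546 and 9438 in the double knockout mice and 7881 to 8799 in wild type, so Pkd2 knockout mouse 3 lay inside the range of the double knockout. Without that mouse the median was -1.29 and 4 genes were called lower, beside 100 of all 15740 tested genes. Lyz2, the lysozyme of myeloid cells, named after its values were seen, read 1519, 1674 and 800 against 347, 206 and 574 (log2 fold change -1.87 ± 0.38, limma adjusted p = 0.0844). Csf1r, the receptor on which macrophage survival depends, read 3277 to 3526 against 3183 to 3344 (log2 fold change -0.08 ± 0.06, limma adjusted p = 0.761). Clec12a, an inhibitory lectin of myeloid cells outside the list, was called, at 101, 102 and 89.7 against 29.5, 10.9 and 27.8 (log2 fold change -2.17 ± 0.35, limma adjusted p = 0.0415), and its call held only without double knockout mouse 2, the highest limma adjusted p with another library left out being 0.162.

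The lists of chemokine, complement and interferon genes gave 1 call. Ccl6, a chemokine of myeloid cells, read 181, 191 and 124 against 62.1, 54.4 and 71.9 (log2 fold change -1.36 ± 0.23, limma adjusted p = 0.0468); the call held only without Pkd2 knockout mouse 3 and reached 0.198 without another library. It was the 1 called of 28 chemokine ligands and receptors (median -1.29, edgeR 0 and DESeq2 2 called). At an unadjusted limma p below 0.05, 14 of the 28 were lower, against 6.49% of all tested genes. Without Pkd2 knockout mouse 3 the chemokine median was -1.45 and 2 were called lower, beside 100 of all 15740 tested genes. Cxcl12, the stromal chemokine, read 4217 to 4616 against 3826 to 5268 (log2 fold change 0.02 ± 0.11, limma adjusted p = 0.972). Of 21 complement genes limma and edgeR called none and DESeq2 1 (median -0.52, 7 lower at an unadjusted limma p below 0.05). Without Pkd2 knockout mouse 3 the complement median was -0.68 and 2 were called lower, beside the same 100 of all tested genes. Of 32 interferon response and antigen presentation genes limma, edgeR and DESeq2 called none (median -0.23, 1 lower at an unadjusted limma p below 0.05), with B2m at 8454 to 14933 against 8172 to 9707. Outside the list, 2 interferon-inducible genes, named after their values were seen, were called in opposite directions: Ifi27l2a read 229, 193 and 248 against 77.3, 95.2 and 108 (log2 fold change -1.25 ± 0.17, limma adjusted p = 0.0314), and Ifi202b read 1.99, 0 and 0.97 against 18.3, 53.5 and 37.4 (limma adjusted p = 0.0409). Ifi27l2a lost its call without Pkd2 knockout mouse 1 or 2 or double knockout mouse 1 or 2 (highest limma adjusted p = 0.113), and Ifi202b kept it only without wild type mouse 3 (highest otherwise 0.166). None of 12 lymphocyte genes was called by limma, edgeR or DESeq2 or had an unadjusted limma p below 0.05.

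**Figure D4:**
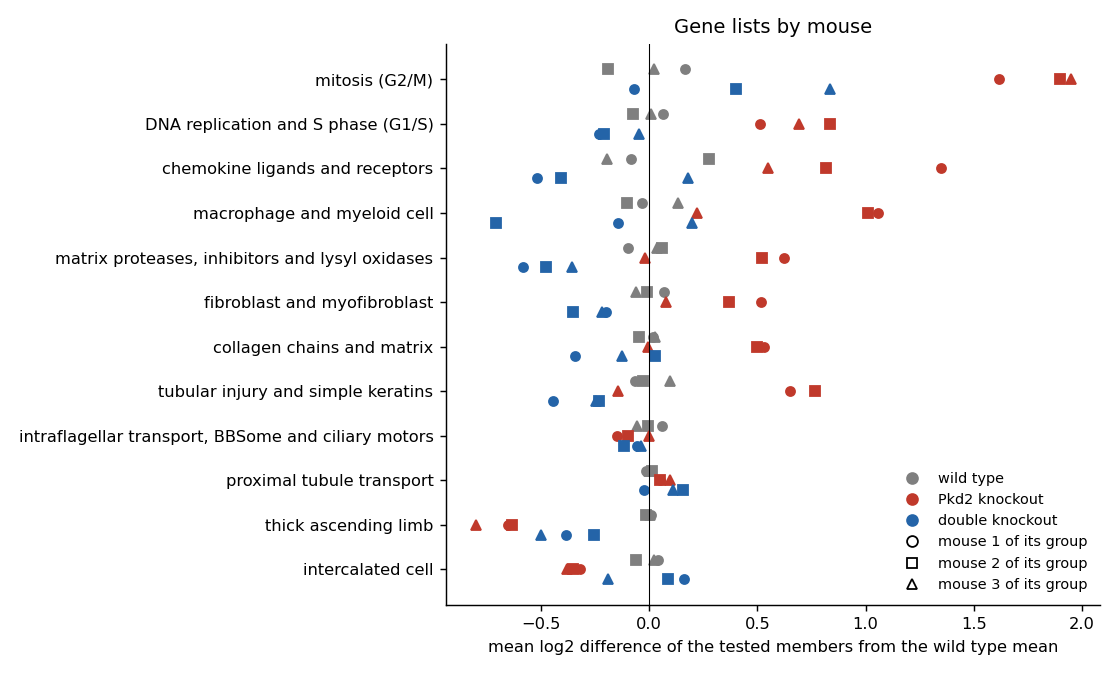
Mean log2 difference of the tested members of 12 gene lists from the wild type mean (x axis), 1 point per mouse, with color for genotype and shape for the mouse number, which does not pair mice across groups. In the mitosis list the Pkd2 knockout mice sit at 1.61 to 1.95 and the double knockout mice at -0.07 to 0.83; in the macrophage list Pkd2 knockout mouse 3 sits at 0.22, apart from 1.06 and 1.01.

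None of the listed tubule segment genes was called by limma. Of 15 thick ascending limb genes, which serve salt uptake and urine dilution, limma, edgeR and DESeq2 called none; 8 were higher at an unadjusted limma p below 0.05 against a background of 4.19%, 10 had non-overlapping groups with the double knockout higher (7.4% of all genes) and the median was 0.33. Slc12a1, the sodium-potassium-chloride cotransporter, read 39541, 43008 and 41940 in the Pkd2 knockout, 58278, 63197 and 46588 in the double knockout and 69505 to 79186 in wild type, with every double knockout mouse between the other groups (log2 fold change 0.42 ± 0.12, limma adjusted p = 0.200). Egf, the growth factor made in this segment, followed the same order, at 45149 to 50899, 58240 to 82649 and 97547 to 105804 (log2 fold change 0.50 ± 0.13, limma adjusted p = 0.163). Umod, uromodulin, overlapped between the mutants at 69605 to 103552 and 96071 to 130734 (limma adjusted p = 0.674). Slc12a1 and Egf were named after their values were seen.

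All 17 tested intercalated cell genes, which serve acid and base secretion in the collecting duct, had log2 fold changes above 0, as did 51.1% of all tested genes, with a median of 0.38. None was called by limma or edgeR and 1 by DESeq2. At an unadjusted limma p below 0.05, 10 were higher, against 4.19% of all tested genes. Slc26a4, pendrin, the chloride-bicarbonate exchanger of type B intercalated cells, named after its values were seen, read 2371, 2478 and 2234 in the Pkd2 knockout, 4160, 4362 and 3066 in the double knockout and 2929 to 3154 in wild type (log2 fold change 0.69 ± 0.12, limma adjusted p = 0.0573). Atp6v0a4, a proton pump subunit, overlapped at 11217 to 13761 and 12758 to 14006 (limma adjusted p = 0.594). Of 15 genes of the distal convoluted and connecting tubule and 13 of principal cells limma, edgeR and DESeq2 called none, with medians of 0.23 and 0.19 and 3 and 1 members higher at an unadjusted limma p below 0.05. Fxyd2, the sodium pump gamma subunit, read 39175 to 40077 against 41501 to 48254 (limma adjusted p = 0.645), and the water channel Aqp2 overlapped at 7941 to 10643 and 7070 to 14226. Of 29 proximal tubule genes limma and edgeR called none and DESeq2 1 lower; 7 were higher and 1 lower at an unadjusted limma p below 0.05, with a median of 0.04. The lower one was Slc7a8, a neutral amino acid exchanger on chromosome 14 named after its values were seen, at 6049 to 7870 in wild type, 7796 to 8497 in the Pkd2 knockout and 3782 to 5676 in the double knockout (log2 fold change -0.80 ± 0.14, limma adjusted p = 0.0597).

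Transcripts of the ciliary machinery other than Ift88 gave no call. Of 37 tested genes of intraflagellar transport, the BBSome and ciliary motors, Ift88 was the only one called by limma and DESeq2, edgeR called none, and the list's median log2 fold change was 0.01. At an unadjusted limma p below 0.05, 2 of the 37 were higher, a share near the 4.19% of all tested genes. These were the transport subunits Ift172 (1561 to 1650 against 1765 to 1878) and Ift81 (711 to 780 against 826 to 936). Their limma adjusted p were 0.314 and 0.378, and both were named after their values were seen. Tulp3, the adaptor that loads receptors into cilia, read 2693 to 3086 against 2351 to 3528 (log2 fold change -0.01 ± 0.13, limma adjusted p = 0.994). None of 15 Hedgehog pathway genes, whose signal is processed in cilia, was called by limma, edgeR or DESeq2 or had an unadjusted limma p below 0.05; the median was -0.03, and Sufu, the pathway's inhibitor, read 2412 to 3462 against 2351 to 3069.

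Metabolic lists gave no call by limma or edgeR. Over all tested genes 4.19% were higher and 6.49% lower at an unadjusted limma p below 0.05. Of 29 genes of cholesterol and fatty acid synthesis DESeq2 called 1, and 2 were higher and 1 lower at an unadjusted limma p below 0.05 (median 0.11). The lower one was Hmgcs1, the synthase that feeds the mevalonate pathway, which read 43082, 35361 and 34998 in the Pkd2 knockout, 22449, 25044 and 16098 in the double knockout and 36702 to 41597 in wild type, so only the double knockout was low (log2 fold change -0.85 ± 0.16, limma adjusted p = 0.0669; against wild type -0.88 ± 0.16, limma adjusted p = 0.0904). Of 32 cytochrome P450 and flavin monooxygenase genes DESeq2 called none, and 7 were higher and 1 lower at an unadjusted limma p below 0.05 (median 0.26); Cyp4b1 read 157293 to 182225 against 152369 to 192382. The other metabolic lists held 28 glycolysis, 31 respiratory chain and 31 fatty acid oxidation genes, none called by DESeq2, with 5 glycolysis genes and 1 fatty acid oxidation gene higher and 1 glycolysis and 1 respiratory chain gene lower at an unadjusted limma p below 0.05, and medians of 0.12, 0.01 and 0.03.

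Signalling lists gave no call by limma or edgeR either. The counts below stand beside 4.19% of all tested genes higher and 6.49% lower at an unadjusted limma p below 0.05. Of 24 TGF-beta pathway genes 1 was higher and 3 lower at an unadjusted limma p below 0.05 (median -0.02), of 30 Wnt genes 3 and 4 (median 0.03), of 26 cyclic AMP genes 2 and 2 (median 0.04) and of 17 hypoxia response genes 1 and 0 (median 0.16), with none called by DESeq2. Of 18 YAP and TAZ targets 3 were lower and none higher (median -0.09; DESeq2 2 called lower), and of 24 JAK-STAT genes 1 was higher and 1 lower (median -0.07; DESeq2 1 called lower).

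The largest rises and falls were single genes. Spink6, a Kazal-type serine protease inhibitor, was nearly absent from the Pkd2 knockout, at 1.99, 0.93 and 0 normalized counts, and present at 237, 270 and 476 in the double knockout and 172, 110 and 250 in wild type. Its log2 fold change of 7.45 ± 0.46 (limma adjusted p = 0.000226) depended on the pseudocount, being 9.02 with 0.1 and 4.88 with 10. Gtf2h2, a subunit of the transcription and repair factor TFIIH, had the smallest limma adjusted p, 3.57e-05. It read 506, 501 and 534 in the Pkd2 knockout, 1580, 1641 and 1709 in the double knockout and 1342 to 1503 in wild type, a 3.20-fold difference between the mutants with little spread in either (log2 fold change 1.68 ± 0.07). Naip5, a neighbouring innate immune sensor gene, is also on chromosome 13 and was named after its values were seen. It read 17.9, 22.4 and 15.6 against 69.2, 48.0 and 54.6 (log2 fold change 1.57 ± 0.26, limma adjusted p = 0.0456). The call of Naip5 was lost whichever library was left out, with a highest limma adjusted p of 0.153. Its adjusted p was 0.318 in edgeR and 0.0973 in DESeq2. Naip5 belongs to a family of near-identical copies, and how reads were shared between them is not given in the sources used here.

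The rises of Prodh2, Ppp1r1b, Spns2 and Elfn1 were from Pkd2 knockout levels below both other groups. Prodh2, the hydroxyproline dehydrogenase of liver and kidney, read 726, 680 and 975 in the Pkd2 knockout, 1872, 2386 and 1571 in the double knockout and 2109 to 2412 in wild type (log2 fold change 1.29 ± 0.17, limma adjusted p = 0.0279). Ppp1r1b, the protein phosphatase inhibitor DARPP-32, read 769, 752 and 725, then 1266, 1525 and 1388, and 1980 to 2079 in wild type (0.89 ± 0.08, limma adjusted p = 0.00272). Its double knockout values lay between the other groups and differed from both, by -0.54 ± 0.08 from wild type (limma adjusted p = 0.0403). Spns2, the sphingosine-1-phosphate exporter, and Elfn1 had log2 fold changes of 0.83 ± 0.13 and 0.79 ± 0.13 (limma adjusted p = 0.0409 and 0.0468), with Spns2 at 582 to 839 against 1238 to 1368 and Elfn1 at 130 to 147 against 220 to 274. Cnst, the connexin-binding protein consortin, differed in the double knockout only, at 1189 to 1307 in the Pkd2 knockout, 1143 to 1244 in wild type and 1833 to 2430 in the double knockout (0.71 ± 0.11, limma adjusted p = 0.0409; against wild type 0.77 ± 0.11, limma adjusted p = 0.0372). Of these 5, the calls of all but Ppp1r1b were lost without Pkd2 knockout mouse 1 or 2 and without double knockout mouse 1 or 2, with highest limma adjusted p of 0.126 for Prodh2 and Spns2, 0.165 for Elfn1 and 0.164 for Cnst. The calls of Spns2, Elfn1 and Cnst were also lost without wild type mouse 1 or 2 or double knockout mouse 3, those of Spns2 and Cnst without wild type mouse 3 and that of Elfn1 without Pkd2 knockout mouse 3.

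Called genes were more frequent on chromosome 14, which carries Ift88, than elsewhere. By gene symbol in the RefSeq GRCm38.p6 annotation, 15175 of the tested genes (96.4%) could be placed. Of 515 tested genes on chromosome 14, 17 (3.30%) were called, 7 higher and 10 lower, against 0 to 0.725% on each other chromosome with at least 20 tested genes. At an unadjusted limma p below 0.05 the share was 22.5% against 7.64% to 16.2%. In gene order, 9 of the 17 lay before Ift88, the farthest 164 tested genes away, and 7 after it, the farthest 159 away. The gene 159 away was Diap3, named after its values were seen. Like Cdk1, Diap3 was higher in the Pkd2 knockout than in wild type (log2 fold change 2.025 ± 0.279, limma adjusted p = 0.0101). Its double knockout values were not distinguished from wild type (0.348 ± 0.279, limma adjusted p = 0.677). The next called gene on that side, 4930564B18Rik, was 126 away. Of the 8 genes called with every library left out in turn, 5 were on chromosome 14. The part of the targeted allele's surrounding chromosome in these differences was not tested.

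**Figure D5:**
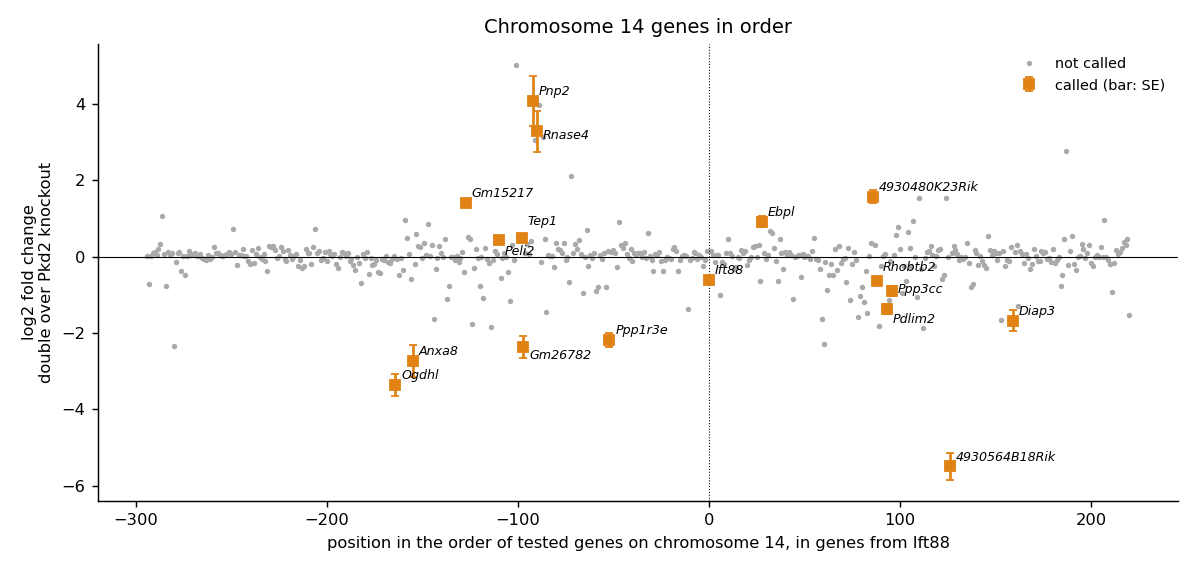
Log2 fold change of the double over the Pkd2 knockout (y axis) for the 515 tested genes of chromosome 14 in gene order, counted in tested genes from Ift88 at 0 (x axis). The 17 called genes (squares, bar SE) lie between 164 genes before and 159 genes after Ift88 and go in both directions. The gene at 159 is Diap3, and the next called one on that side is at 126.

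In Ogdhl and Ppp1r3e, both on chromosome 14, the double knockout stood apart. Ogdhl, an oxoglutarate dehydrogenase homologue, read 220, 224 and 138 in the Pkd2 knockout, 181, 194 and 127 in wild type and 21.4, 19.9 and 12.5 in the double knockout (log2 fold change against the Pkd2 knockout -3.37 ± 0.28, limma adjusted p = 0.00162; against wild type -3.17 ± 0.28, limma adjusted p = 0.00208). Ppp1r3e, a glycogen-targeting subunit of protein phosphatase 1, read 511, 471 and 498 against 130, 94.2 and 102 (log2 fold change -2.18 ± 0.18, limma adjusted p = 0.00162; against wild type -1.72 ± 0.18, limma adjusted p = 0.00472). In both, the double knockout was low and the Pkd2 knockout was not distinguished from wild type (limma adjusted p = 0.752 and 0.223).

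Further chromosome 14 genes were named after their values were seen. 4930564B18Rik read 52.6, 89.7 and 69.2 in the Pkd2 knockout and 0, 0.91 and 0.96 in the double knockout, beside 50.1 to 74.3 in wild type (limma adjusted p = 0.000278). Pdlim2, an adaptor that links the cytoskeleton to protein degradation, read 873, 685 and 765 against 314, 288 and 286, beside 638 to 881 in wild type (log2 fold change -1.38 ± 0.14, limma adjusted p = 0.00565). The gene model Gm15217 went the other way, at 479, 502 and 535 against 1218, 1385 and 1430, beside 589 to 599 in wild type (1.41 ± 0.09, limma adjusted p = 0.000226).

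Rnase4 and Pnp2, both on chromosome 14, varied widely among the wild type mice. Rnase4, a secreted ribonuclease, read 403, 545 and 480 in the Pkd2 knockout, 5527, 4724 and 3733 in the double knockout and 272, 1196 and 1602 in wild type (log2 fold change 3.28 ± 0.54, limma adjusted p = 0.0468). Ang, angiogenin, shares a promoter region with Rnase4 and was named after its values were seen. It read 29.8, 49.5 and 41.9 against 401, 321 and 290 (log2 fold change 3.05, limma adjusted p = 0.0680). How reads of overlapping transcripts were counted is not given in the sources used here. Pnp2, a purine nucleoside phosphorylase that lies beside its close copy Pnp, so that its reads are uncertain, read 3.97, 5.61 and 11.7 against 118, 130 and 128, beside 9.04 to 64.2 in wild type (4.08 ± 0.65, limma adjusted p = 0.0423). The calls of Rnase4 and Pnp2 were lost without wild type mouse 2, Pkd2 knockout mouse 1 or 2 or any double knockout mouse, and also without Pkd2 knockout mouse 3 for Rnase4 and wild type mouse 3 for Pnp2, with a highest limma adjusted p of 0.158 each, while edgeR gave adjusted p of 0.0105 and 0.0263 on the recovered reads. Ebpl (a homologue of a sterol isomerase), Tep1 (a telomerase-associated protein) and Peli2 (a ubiquitin ligase of innate signalling) had smaller log2 fold changes of 0.91 ± 0.14, 0.48 ± 0.07 and 0.43 ± 0.06 (limma adjusted p = 0.0404, 0.0361 and 0.0357). Tep1 read 1324 to 1419 against 1883 to 1943, and 1377 to 1590 in wild type. The calls of Ebpl, Tep1 and Peli2 were lost without wild type mouse 2, Pkd2 knockout mouse 1 or 2 or any double knockout mouse. Those of Ebpl and Peli2 were also lost without wild type mouse 1. Their highest limma adjusted p were 0.151, 0.140 and 0.151, and their edgeR adjusted p 0.231, 0.189 and 0.189, in the order Ebpl, Tep1 and Peli2.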

How the data were processed

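Whole-kidney poly(A) RNA from 9 mice was extracted with Trizol, per the labels' protocols. The authors deposited 1 table of normalized counts per gene, here treated as a signal; per the submitters' processing notes the tools were STAR 2.5.0, HTSeq 0.6.1 and DESeq2. Not given in the sources used here are the build, the annotation and the strand setting, so that a gene's reads may include those of an overlapping or antisense partner; 25 row names had become dates.

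The main test used limma 3.58.1 under R 4.3.3 with log2(normalized count + 1) values, 3 group means, all 9 libraries (residual df 6, prior df 3.22), an intensity trend, a minimum mean of 10, Benjamini-Hochberg adjustment over 15740 genes, called below 0.05. Fold changes are on that scale and understate the change of low genes. SE comes from the fit, with the variance between mice pooled over the 3 groups, wild type included, and moderated toward the intensity trend. The p-values set a difference against that variance between these mice. Dividing the deposited normalized counts by the value of 1 read gave whole numbers for 100% of values (tolerance 0.05) in 7 libraries; edgeR 4.0.16 and DESeq2 1.42.0 used these as alternatives. In wild type mouse 1 and Pkd2 knockout mouse 1 the value of 1 read is too near 1 to be accepted as scaled, so these libraries entered no count test. Replicate numbers did not pair mice.

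The members and lists were chosen with earlier results of these data known. Named genes were Pkd2, Ift88, Pkd1, the 12 largest rises and 12 largest falls among called genes whose groups did not overlap and whose mean reached 50 (clones and pseudogenes left out), up to 6 called members per list by p, and the uncalled member with the highest mean of each described list, except some that are not reported here; others are marked as named after their values were seen.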

Additional observations from a re-analysis of the deposited data

How the results depend on the processing

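Called genes numbered 20 higher and 42 lower. The higher count was 12 where the minimum mean was 50, and the lower 16 after quantile normalization. With array quality weights they were 199 and 415, with only the 2 mutant groups 12 and 14, with the replicate block 6 and 9, without wild type and Pkd2 knockout mouse 3 together 106 and 202, with edgeR 6 and 4, with DESeq2 41 and 111, and with limma on the 7 libraries with recovered reads, chosen after seeing the data, 7 and 4. Leaving out each library in turn gave 4 to 54 higher and 4 to 100 lower. Mitosis genes called lower were 10, and 3 after quantile normalization, 29 with weights, 1 with the mutants only, 2 with the block, 0 with edgeR, 23 with DESeq2, 0 with limma on the 7 libraries, and 0 to 11 leaving out each library. The replicate numbers shared by the groups did not pair mice (correlations of deviations -0.079, -0.142 and -0.138, no Pkd2 knockout mouse correlating best with its own number); 12 of the 62 called genes were also called with the block. Ift88 (-0.60) was not called with the mutants only (-0.602, limma adjusted p = 0.0984), with the block (-0.602, limma adjusted p = 0.0753), with edgeR (-0.615, edgeR adjusted p = 0.189) or with limma on the 7 libraries (-0.613, limma adjusted p = 0.228), and ran from -0.676 to -0.543 leaving out each library. The cause of these shifts was not tested, except that fewer libraries entered the fits that leave some out.

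Uncalled values near 0 changed sign. Leaving out each library in turn gave -0.218 to 0.010 for Pkd2, -0.097 to 0.066 for Pkd1, -0.151 to 0.141 for Tulp3, -0.23 to 0.057 for Sufu, -0.082 to 0.422 for Aqp2, -0.100 to 0.131 for Cxcl12 and -0.279 to 0.055 for Col4a3. Pkd1 was 0.032 with edgeR, 0.033 with DESeq2 and 0.036 with limma on the 7 libraries. Tulp3 was 0.002 with TMM, 0.036 without wild type and Pkd2 knockout mouse 3, 0.016 with edgeR, 0.018 with DESeq2 and 0.003 with limma on the 7 libraries. Sufu was 0.035 with weights and 0.057 without both mice 3, Cxcl12 -0.003 with limma on the 7 libraries, and Cyp4b1 -0.022 after quantile normalization.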
